A study of Homo sapiens with 9 samples.

Results

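Splicing factor genes were followed in the human cell line MDA-MB-231, which comes from a triple-negative breast cancer, after exposure to JQ1, a small molecule that displaces BET bromodomain proteins from chromatin. The members were every gene whose symbol in the platform's gene table names an SR protein (SRSF), an hnRNP protein (HNRNP), a PRPF pre-mRNA processing factor, a U2AF subunit or an SNRP protein of the spliceosomal snRNPs, without pseudogenes. This gave 53 of the 14884 named genes: 10 SRSF, 19 HNRNP, 11 SNRP, 10 PRPF and 3 U2AF genes. No gene of the SF3A and SF3B subunits, which the same rule covers, was among the named rows, so these were not analysed here. Cells had JQ1 at 500 nM for 12 h (3 arrays) or 24 h (3 arrays), or received no agent (3 control arrays, labelled as time 0). All 9 samples were total RNA from the same line, each on its own Affymetrix Human Gene 2.0 ST Array, and values are the deposited log2 array values. The labels name no vehicle and give the controls no matching time in culture, so solvent and culture time cannot be told apart from JQ1, and they do not say whether replicates were separate cultures, so the spread behind each p-value is that of these samples and could be technical only.

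Introns are removed from pre-mRNA by the spliceosome, which is assembled from small nuclear ribonucleoproteins (snRNPs), each a small RNA with a ring of Sm proteins and its own additional proteins. U2AF recognises the end of the intron, PRPF proteins belong mainly to the U4/U6 and U5 snRNPs that activate the spliceosome, SR proteins bind exons and usually promote their inclusion, and hnRNP proteins bind introns and exons and often oppose it. BET proteins sit at acetylated promoters and enhancers and help RNA polymerase II into elongation, and much splicing takes place while the polymerase is still transcribing. The values below are amounts of RNA per gene. They do not measure splicing itself, nor do they separate productive transcripts from those with premature stop exons, by which many SR genes limit their own expression.

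The 9 arrays had medians between 4.92 and 4.97, so statements on single genes are relative to the other genes of the array. A change in RNA per cell over all genes, or in the number of cells, cannot be seen in these values. BRD2, which BET inhibition is known to raise, had 9.45, 9.49 and 9.46 in the JQ1 12 h arrays and 9.37, 9.41 and 9.37 in the JQ1 24 h arrays, against 8.42, 8.38 and 8.46 in controls, so it was higher in all JQ1 arrays than in all controls. HEXIM1, another gene that BET inhibition raises, had 9.82, 9.61 and 9.78 in the JQ1 12 h arrays and 9.85, 9.64 and 9.85 in the JQ1 24 h arrays, against 7.56, 7.82 and 8.45 in controls. MYC, which BET inhibition often lowers, had 9.03, 9.21 and 9.005 in the JQ1 12 h arrays and 9.36, 9.13 and 9.35 in the JQ1 24 h arrays, against 10.29, 10.32 and 9.52 in controls. The JQ1 and control arrays did not overlap in these 3 genes, but control 3 lay nearer to the JQ1 arrays than controls 1 and 2 did in HEXIM1 and MYC. Of the 4 measured markers of the line, VIM had a mean of 10.35 in controls, MSN 12.31, AXL 11.72 and CD44 7.62. Of the 4 measured luminal and epithelial markers, the receptors ESR1 and PGR had control means of 5.03 and 4.001, EPCAM 6.44 and KRT18 9.81. KRT18 rose by 0.60 log2 at 12 h and 0.61 at 24 h (adjusted p = 0.030 and 0.022), and EPCAM fell at 12 h (−0.28, adjusted p = 0.048; −0.26 and 0.052 at 24 h); their part in the results below was not tested. The measured markers of other cell types, DCN, CD14, PECAM1, VWF and KDR, had control means between 2.99 and 4.98. Control 3 stood apart from controls 1 and 2 over the splicing factor genes: it lay above both in 43 of 53 members, by a median of 0.39 log2 over all 53, and below both in 7. Over all 14884 named genes it lay above both in 5386 (36.2%) and below both in 6030, with a median difference of −0.01. Any 1 of 3 like arrays would be the highest or the lowest in many genes. These counts alone therefore do not show whether control 3 also stood apart outside these families. Controls 1 and 2 differed from each other by a median of 0.06 log2 over the members. Counts of genes called are therefore given with and without control 3. Counts of groups that did not overlap are with all arrays only. Why this array differs was not tested.

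**Figure D1:**
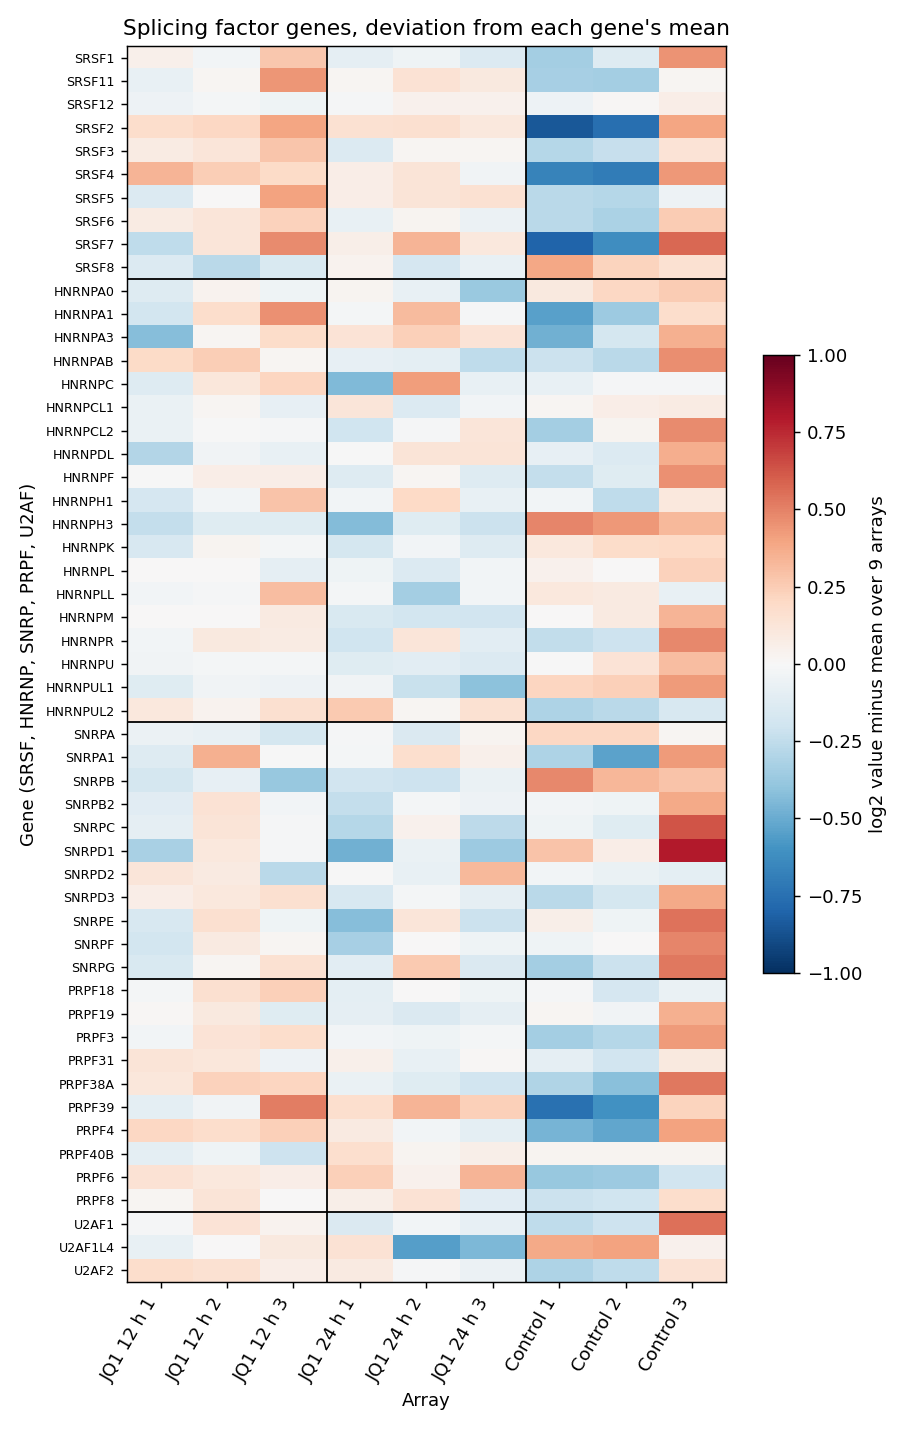
Deviation of each splicing factor gene (rows, by family) from its own mean over the 9 arrays (columns), on the log2 scale from −1 to 1, with red above and blue below the mean. Control 3 is red in most rows where controls 1 and 2 are blue or pale, and HNRNPH3 and SNRPB are red in all 3 controls and blue in all 6 JQ1 arrays.

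With all arrays, 5 members were called at 12 h (adjusted p under 0.05 in limma over all named genes), 2 up and 3 down. That is 9.43% of the 53, beside 7.93% of all genes (3.54% up and 4.39% down). At 24 h 6 were called, 2 up and 4 down, or 11.3% beside 11.5% of all genes (5.17% up and 6.34% down). The shares of members called were thus close to those of the array as a whole. The 5 genes called at 12 h were HNRNPH3, SNRPB, SRSF8, HNRNPUL2 and PRPF6; all 5 were called at 24 h too, where HNRNPUL1 was added. The 2 comparisons share their control arrays, so the second list is no independent repeat of the first. The median member differed by 0.04 log2 at 12 h and −0.06 at 24 h, against 0.01 at both times over all genes.

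HNRNPH3, an hnRNP of the H/F family that binds G-rich RNA, had 9.01, 9.13 and 9.12 in the JQ1 12 h arrays and 8.81, 9.12 and 9.03 in the JQ1 24 h arrays, against 9.74, 9.68 and 9.57 in controls. All 6 JQ1 values lay below all 3 controls. It fell 1.49-fold at 12 h (log2 difference −0.58, SE 0.09, adjusted p = 0.0078) and 1.60-fold at 24 h (−0.68, SE 0.09, adjusted p = 0.0027). The 2 other H/F genes among the members, HNRNPH1 and HNRNPF, were called at neither time, with log2 differences of 0.09 and 0.01 at 12 h.

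SNRPB encodes SmB and SmB′, core proteins of the Sm ring. It had 9.20, 9.29 and 8.996 in the JQ1 12 h arrays and 9.18, 9.17 and 9.31 in the JQ1 24 h arrays, against 9.86, 9.71 and 9.66 in controls, again without overlap. The fall at 12 h was close to that of HNRNPH3 (log2 difference −0.58, SE 0.10, adjusted p = 0.0081) and 1.44-fold at 24 h (log2 difference −0.52, SE 0.10, adjusted p = 0.0097). HNRNPH3 and SNRPB were called at both times whichever single array was left out, with adjusted p-values of at most 0.038 and 0.043.

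SRSF8, an SR protein gene that arose as a retroposed copy of SRSF2, had 7.86, 7.73 and 7.84 in the JQ1 12 h arrays and 8.03, 7.83 and 7.92 in the JQ1 24 h arrays, against 8.38, 8.22 and 8.14 in controls. The JQ1 values lay below the controls at both times, although the highest JQ1 24 h value and the lowest control were only a little apart. The log2 difference was −0.44 at 12 h (SE 0.09, adjusted p = 0.019) and −0.32 at 24 h (SE 0.09, adjusted p = 0.048). The 24 h call was lost on leaving out any array other than control 3 (adjusted p up to 0.16). At 12 h it did not survive the loss of control 1 or 2, nor of replicate 2 or 3 at that time (up to 0.074). SRSF2 and SRSF8 are similar in sequence, and how far the probes separate them was not tested.

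HNRNPUL1 and HNRNPUL2 encode related hnRNP U-like proteins that also act in the response to DNA breaks. HNRNPUL1 had 10.64, 10.73 and 10.71 in the JQ1 12 h arrays and 10.73, 10.54 and 10.35 in the JQ1 24 h arrays, against 10.98, 11.004 and 11.19 in controls. Its JQ1 values lay below the controls at both times. It fell at 24 h (log2 difference −0.52, SE 0.10, adjusted p = 0.014; 0.052 without JQ1 24 h replicate 3), and its 12 h difference of −0.36 did not pass (SE 0.10, adjusted p = 0.070).

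HNRNPUL2 went the other way, with 7.39, 7.32 and 7.44 in the JQ1 12 h arrays and 7.55, 7.31 and 7.44 in the JQ1 24 h arrays, against 6.97, 7.01 and 7.13 in controls. The JQ1 values lay above all controls. It rose by a log2 difference of 0.35 at 12 h (SE 0.08, adjusted p = 0.038) and 0.39 at 24 h (SE 0.08, adjusted p = 0.018). The 12 h call was also lost with the replicate number as a block (adjusted p = 0.057). It was lost in 6 of the 9 fits with 1 array left out (adjusted p up to 0.14), those lacking control 1 or 2, any of the 12 h arrays, or JQ1 24 h replicate 3. The 24 h call was lost in 4 (up to 0.069), those lacking control 1 or 2, or replicate 1 or 3 at 24 h. A read-through transcript, HNRNPUL2-BSCL2, overlaps this gene in RefSeq, and the 2 cannot be told apart here.

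PRPF6, a protein that bridges the U5 and U4/U6 snRNPs, had 9.20, 9.16 and 9.13 in the JQ1 12 h arrays and 9.30, 9.10 and 9.40 in the JQ1 24 h arrays, against 8.68, 8.70 and 8.87 in controls. All 6 JQ1 values were above the 3 controls. The rise was 1.33-fold at 12 h (log2 difference 0.41, SE 0.09, adjusted p = 0.028) and 1.43-fold at 24 h (0.52, SE 0.09, adjusted p = 0.0088). The 24 h call held with each of the 9 arrays left out in turn (adjusted p up to 0.039). At 12 h the call did not survive leaving out control 1, control 2 or any of the 12 h arrays (up to 0.11).

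**Figure D2:**
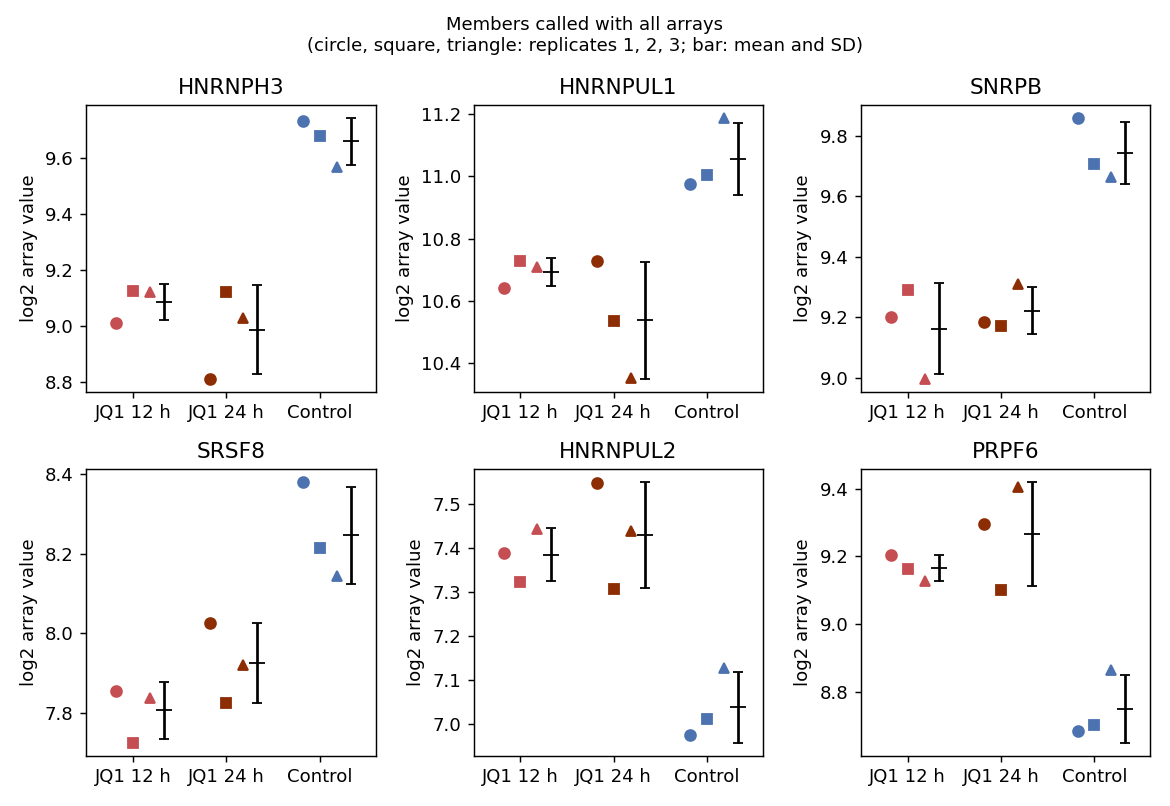
Log2 array values (vertical axes, scaled per gene) of the 6 splicing factor genes called with all arrays, in JQ1 12 h, JQ1 24 h and control arrays (circle, square and triangle for replicates 1, 2 and 3; bar for mean and SD, n = 3). HNRNPH3, HNRNPUL1, SNRPB and SRSF8 lie below and HNRNPUL2 and PRPF6 above all 3 controls in all 6 JQ1 arrays.

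For the 5 members called at both times, the 250 bases upstream of the first transcription start that RefSeq's promoter table lists (GRCh38.p14) are shown to set the promoters of the 3 that fell (HNRNPH3, SNRPB and SRSF8) beside those of the 2 that rose (HNRNPUL2 and PRPF6). They are written 5′ to 3′ on the gene's strand, with capitals for matches, on either strand, to the E-box CACGTG, which MYC and its relatives bind, to CCGGAAG, a core site of ETS factors, and to TATAAA.
HNRNPH3, chr10:68331443-68331692, plus strand: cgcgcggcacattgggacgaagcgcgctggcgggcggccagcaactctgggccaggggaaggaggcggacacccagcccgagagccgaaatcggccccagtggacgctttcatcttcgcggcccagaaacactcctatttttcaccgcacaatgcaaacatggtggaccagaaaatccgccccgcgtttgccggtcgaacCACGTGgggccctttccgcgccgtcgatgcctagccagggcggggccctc
SNRPB, chr20:2470790-2471039, minus strand: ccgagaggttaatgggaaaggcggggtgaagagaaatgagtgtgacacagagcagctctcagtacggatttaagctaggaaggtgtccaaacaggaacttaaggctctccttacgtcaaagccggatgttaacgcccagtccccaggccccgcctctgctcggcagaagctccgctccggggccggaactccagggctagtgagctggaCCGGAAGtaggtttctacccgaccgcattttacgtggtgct
SRSF8, chr11:95066627-95066876, plus strand: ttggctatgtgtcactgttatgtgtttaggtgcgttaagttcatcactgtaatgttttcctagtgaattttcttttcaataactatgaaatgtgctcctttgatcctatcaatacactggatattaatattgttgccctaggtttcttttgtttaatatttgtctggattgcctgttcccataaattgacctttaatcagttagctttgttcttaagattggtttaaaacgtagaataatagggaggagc
HNRNPUL2, chr11:62727458-62727707, minus strand: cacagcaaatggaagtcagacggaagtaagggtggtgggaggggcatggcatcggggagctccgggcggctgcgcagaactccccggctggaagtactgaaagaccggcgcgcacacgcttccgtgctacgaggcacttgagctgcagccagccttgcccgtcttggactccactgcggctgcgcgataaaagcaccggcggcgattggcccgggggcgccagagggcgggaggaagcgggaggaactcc
PRPF6, chr20:63980882-63981131, plus strand: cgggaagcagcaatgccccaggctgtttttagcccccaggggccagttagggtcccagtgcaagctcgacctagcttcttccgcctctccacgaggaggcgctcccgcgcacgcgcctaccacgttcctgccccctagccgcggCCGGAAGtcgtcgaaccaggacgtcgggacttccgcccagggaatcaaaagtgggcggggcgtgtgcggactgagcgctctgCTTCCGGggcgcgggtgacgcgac
The HNRNPH3 window held 1 E-box, the SNRPB window 1 ETS match and the PRPF6 window 2, while those of SRSF8 and HNRNPUL2 held no match to these letters. No matches overlapped. The table lists 3 starts for HNRNPH3, 2 for SRSF8 and 1 for each of the others. The window of SRSF8 was 33.6% G and C, the lowest of the 48 members found in the table, whose median was 61.6%. Over those 48 members (first start listed), 4 held the E-box (8.33%), 14 the ETS letters (29.2%) and 5 the TATA letters (10.4%). Among all 35116 windows of the same length the shares were 6.34%, 8.52% and 10.7%, and among the first windows of 10749 named genes 7.93%, 12.4% and 8.14%. A match is a run of letters, and factor binding was not measured here.

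Without control 3, the number of members called was 22 at 12 h, 18 up and 4 down, and 16 at 24 h, 11 up and 5 down. That is 41.5% and 30.2% of members, beside 20.1% and 20.9% of all genes. Members called up made up 34.0% at 12 h and 20.8% at 24 h, beside 9.57% and 9.61% of all genes, and members called down 7.55% and 9.43%, beside 10.5% and 11.3%. Control 3 was set aside after it was seen to be high in most members, and leaving it out lowers their control mean. The larger share called up therefore follows in part from that choice, as do the family counts of up calls below. The 24 genes called at either time included all 6 called with all arrays. In the 18 others, control 3 lay above controls 1 and 2 in 16 and below them in 2. All 6 JQ1 arrays lay above controls 1 and 2 in 15 of the 18 and below them in 2. Control 3 lay within the range of the 6 JQ1 values in 8 of the 18 and above it in 10. The 18 were picked because they passed only without control 3. These positions therefore largely follow from that choice and are no separate result. With all arrays weighted equally none of the 18 passed the test. At 12 h all 18 had the same sign in both fits. The fits share all JQ1 arrays and controls 1 and 2, so this agreement is no separate support for the direction. U2AF1 kept its sign with a log2 difference of only 0.02 with all arrays (SE 0.185). At 24 h PRPF38A, SNRPD3, HNRNPAB and U2AF1 were lower than controls with all arrays and higher without control 3, uncalled in both fits. A fit that kept control 3 at a low array weight called some of them, such as SRSF2 (adjusted p = 0.00083) and HNRNPA1 (0.014) at 12 h. That weight was estimated from these same values, so this fit is close to leaving control 3 out and is no independent check.

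SRSF2, the SR protein also known as SC35, had 10.53, 10.56 and 10.75 in the JQ1 12 h arrays and 10.51, 10.52 and 10.46 in the JQ1 24 h arrays, against 9.51, 9.60 and 10.75 in controls. Controls 1 and 2 were lower than every JQ1 array, and control 3 was level with the highest JQ1 array. With all arrays the log2 difference was 0.66 at 12 h (SE 0.27, adjusted p = 0.20) and 0.54 at 24 h (SE 0.27, adjusted p = 0.27). Without control 3 it was 1.06 (SE 0.09, adjusted p = 5.4e-05) and 0.94 (SE 0.09, adjusted p = 0.00010), the largest difference and lowest adjusted p of any member at each time.

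SRSF4 had 9.001, 8.91 and 8.86 in the JQ1 12 h arrays and 8.73, 8.79 and 8.63 in the JQ1 24 h arrays, against 7.999, 7.97 and 9.10 in controls. Control 3 exceeded every JQ1 array, and controls 1 and 2 lay under all of them. The log2 difference was 0.57 at 12 h and 0.36 at 24 h with all arrays (SE 0.26, adjusted p = 0.24 and 0.45), and 0.94 and 0.74 without control 3 (SE 0.08, adjusted p = 7.5e-05 and 0.00029). SRSF7 had 8.73, 9.11 and 9.45 in the JQ1 12 h arrays and 9.04, 9.32 and 9.09 in the JQ1 24 h arrays, against 8.19, 8.36 and 9.56 in controls. Its control 3 value was again above all JQ1 values. Its difference without control 3 was 0.82 and 0.87 (adjusted p = 0.012 and 0.0084), and 0.39 and 0.45 with all arrays (adjusted p = 0.58 and 0.48).

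SRSF6 had 9.95, 9.99 and 10.10 in the JQ1 12 h arrays and 9.80, 9.90 and 9.81 in the JQ1 24 h arrays, against 9.60, 9.55 and 10.12 in controls. Without control 3 its log2 difference was 0.44 at 12 h and 0.26 at 24 h (adjusted p = 0.0040 and 0.046). SRSF3 and SRSF11 were called without control 3 at 12 h alone (log2 0.42 and 0.46, adjusted p = 0.010 and 0.041). Of the 10 SRSF genes, 6 were called up and 1, SRSF8, down at 12 h without control 3, and 4 up and 1 down at 24 h; with all arrays 0 were up and 1 was down at each time. Of all genes, 9.57% were called up and 10.5% down at 12 h without control 3, and 9.61% and 11.3% at 24 h. The family's median log2 difference was 0.29 at 12 h and 0.20 at 24 h with all arrays, and 0.43 and 0.33 without control 3. SRSF1, the founding SR protein, had 11.14, 11.06 and 11.36 in the JQ1 12 h arrays and 10.99, 11.05 and 10.95 in the JQ1 24 h arrays, against 10.75, 10.96 and 11.54 in controls, and was called in neither fit (log2 0.10 and −0.08 with all arrays).

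**Figure D3:**
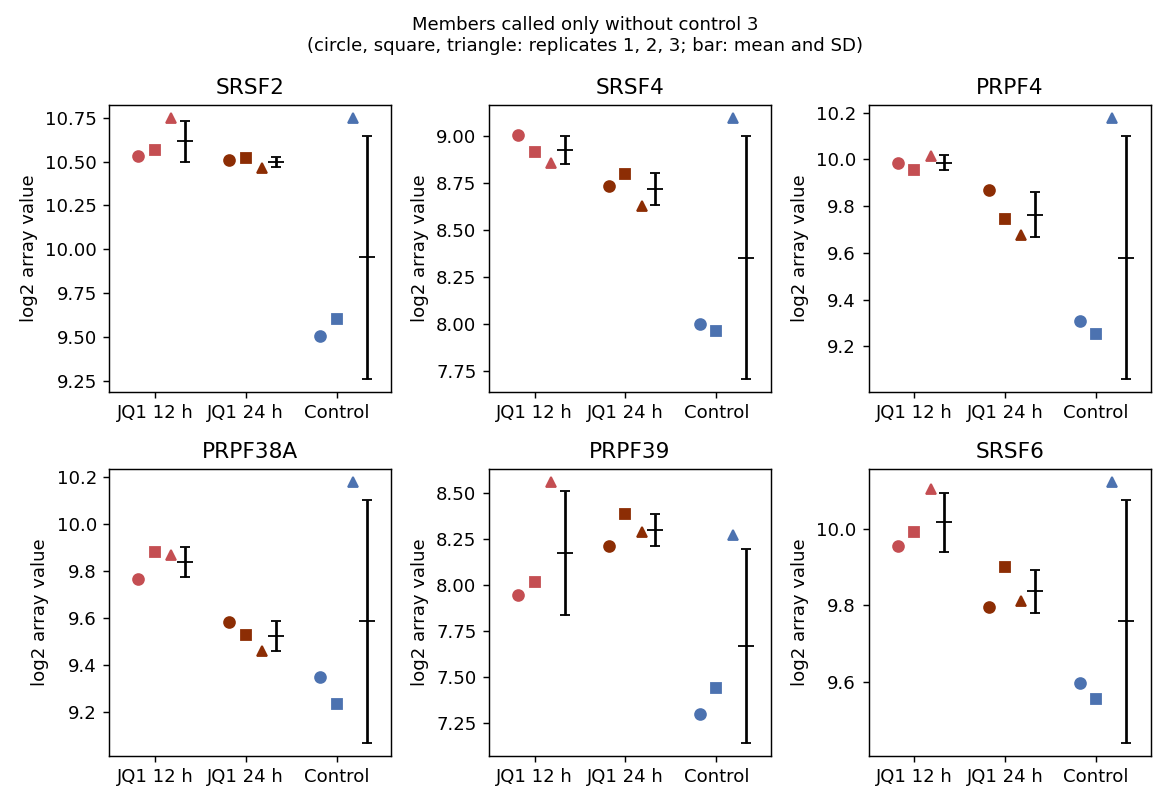
Log2 array values (vertical axes, scaled per gene) of the 6 splicing factor genes with the lowest adjusted p among those called only without control 3, in JQ1 12 h, JQ1 24 h and control arrays (circle, square and triangle for replicates 1, 2 and 3; bar for mean and SD, n = 3). Controls 1 and 2 lie below all 6 JQ1 arrays in each panel, and control 3 (blue triangle) lies within or above the JQ1 values. The genes were picked by passing only without control 3, so this placing largely follows from the choice.

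Among the PRPF genes, PRPF4, a protein of the U4/U6 snRNP, had 9.99, 9.95 and 10.02 in the JQ1 12 h arrays and 9.87, 9.75 and 9.68 in the JQ1 24 h arrays, against 9.31, 9.25 and 10.18 in controls. Its log2 difference without control 3 was 0.70 at 12 h and 0.48 at 24 h (SE 0.08, adjusted p = 0.00036 and 0.0027), and 0.40 and 0.18 with all arrays (adjusted p = 0.32 and 0.68). PRPF3, its partner in the U4/U6 snRNP, followed the same order, at 0.40 and 0.28 without control 3 (adjusted p = 0.0075 and 0.041). PRPF39, related to a yeast U1 snRNP protein, had 7.95, 8.02 and 8.56 in the JQ1 12 h arrays and 8.21, 8.39 and 8.29 in the JQ1 24 h arrays, against 7.30, 7.44 and 8.27 in controls. It gave 0.81 and 0.93 without control 3 (adjusted p = 0.0074 and 0.0036), and with all arrays 0.50 and 0.63, the highest member difference at 24 h (SE 0.25, adjusted p = 0.29 and 0.15). PRPF38A, needed for spliceosome activation, had 9.77, 9.88 and 9.87 in the JQ1 12 h arrays and 9.59, 9.53 and 9.46 in the JQ1 24 h arrays, against 9.35, 9.23 and 10.18 in controls. It was called without control 3 at 12 h (0.55, adjusted p = 0.0014) and not at 24 h (0.23, adjusted p = 0.077). PRPF8, which holds the catalytic centre, was called in neither fit, with differences of 0.13 and 0.11 with all arrays (SE 0.12) and 0.26 and 0.24 without control 3 (SE 0.09). Over the 10 PRPF genes, 5 were called up at 12 h and 4 at 24 h without control 3 and 0 down, against 1 up and 0 down at each time with all arrays. The shares of all genes called up were 9.57% and 9.61% without control 3, and 3.54% and 5.17% with all arrays.

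U2AF2, the large U2AF subunit that binds the polypyrimidine tract, had 11.11, 11.08 and 11.002 in the JQ1 12 h arrays and 11.03, 10.92 and 10.88 in the JQ1 24 h arrays, against 10.63, 10.68 and 11.08 in controls. It was called only without control 3, at 0.41 and 0.29 log2 (adjusted p = 0.0055 and 0.031). U2AF1, the small subunit that reads the AG at the end of the intron, had 7.71, 7.86 and 7.76 in the JQ1 12 h arrays and 7.58, 7.69 and 7.64 in the JQ1 24 h arrays, against 7.47, 7.52 and 8.27 in controls. It was called without control 3 at 12 h (0.28, adjusted p = 0.035), and its difference with all arrays was 0.02. U2AF1L4, a paralogue of U2AF1, had 6.61, 6.69 and 6.79 in the JQ1 12 h arrays and 6.83, 6.13 and 6.24 in the JQ1 24 h arrays, against 7.06, 7.09 and 6.73 in controls. The fall at 24 h passed only without control 3 (log2 −0.68, adjusted p = 0.023; −0.56 and adjusted p = 0.075 with all arrays).

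The 11 SNRP genes differed among themselves. SNRPB was the sole member of the family called with all arrays. SNRPD1, another Sm ring protein, had 9.34, 9.76 and 9.65 in the JQ1 12 h arrays and 9.18, 9.59 and 9.30 in the JQ1 24 h arrays, against 9.94, 9.72 and 10.45 in controls. All JQ1 24 h values lay below the controls, but the differences of −0.45 at 12 h and −0.68 at 24 h missed the threshold (SE 0.19, adjusted p = 0.21 and 0.052), as they did without control 3 (−0.25 and −0.48, adjusted p = 0.36 and 0.057). SNRPD3 had 11.47, 11.51 and 11.56 in the JQ1 12 h arrays and 11.25, 11.38 and 11.31 in the JQ1 24 h arrays, against 11.14, 11.23 and 11.78 in controls. It was called without control 3 at 12 h (0.34, adjusted p = 0.015). SNRPA1, the U2 protein that forms a pair with SNRPB2, was called up without control 3 at both times (0.50 and 0.49, adjusted p = 0.036 and 0.037). SNRPA, a protein of the U1 snRNP, was called down at 12 h without control 3 (−0.31, adjusted p = 0.028) and not with all arrays (−0.25, adjusted p = 0.12). The Sm genes SNRPE, SNRPF and SNRPG were called in neither fit. Control 3 exceeded controls 1 and 2 by a median of 0.54 log2 over the SNRP genes, and 9 of the 11 were higher in control 3 than in every JQ1 array. SNRPE had 2 named rows, of which the brighter was used; the other gave 0.02 and 0.03 in place of −0.20 and −0.36, all uncalled.

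The 19 HNRNP genes had 1 up and 1 down at 12 h and 1 up and 2 down at 24 h with all arrays, which is 10.5% beside 7.93% of all genes and 15.8% beside 11.5%. Without control 3 they had 3 up and 1 down at 12 h (21.1% called, beside 20.1% of all genes) and 1 up and 2 down at 24 h (15.8%, beside 20.9%). The family's median log2 difference was −0.08 at 12 h and −0.11 at 24 h with all arrays, and −0.01 and 0.01 without control 3. HNRNPA1, a well-known repressor of exon inclusion, had 9.09, 9.45 and 9.73 in the JQ1 12 h arrays and 9.26, 9.59 and 9.26 in the JQ1 24 h arrays, against 8.73, 8.91 and 9.45 in controls. It was called without control 3 at 12 h (0.60, adjusted p = 0.041) and not at 24 h (0.55, adjusted p = 0.057). HNRNPM had 11.19, 11.19 and 11.27 in the JQ1 12 h arrays and 11.04, 11.001 and 10.99 in the JQ1 24 h arrays, against 11.19, 11.28 and 11.52 in controls. Its JQ1 24 h values lay below all controls, but the difference of −0.32 did not pass (SE 0.09, adjusted p = 0.055). At 24 h the JQ1 arrays lay wholly below the controls in 7 HNRNP genes and wholly above in 1, beside 12.8% and 13.3% of all genes. Over the 53 members the groups did not overlap in 11 genes at 12 h (20.8%, beside 22.2% of all genes) and in 14 at 24 h (26.4%, beside 26.1%). At 12 h JQ1 lay wholly above the controls in 2 and wholly below in 9, beside 11.3% and 10.9% of all genes. At 24 h the counts were 3 above and 11 below, beside 13.3% and 12.8%. Control 3, high in most members, is part of these counts.

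**Figure D4:**
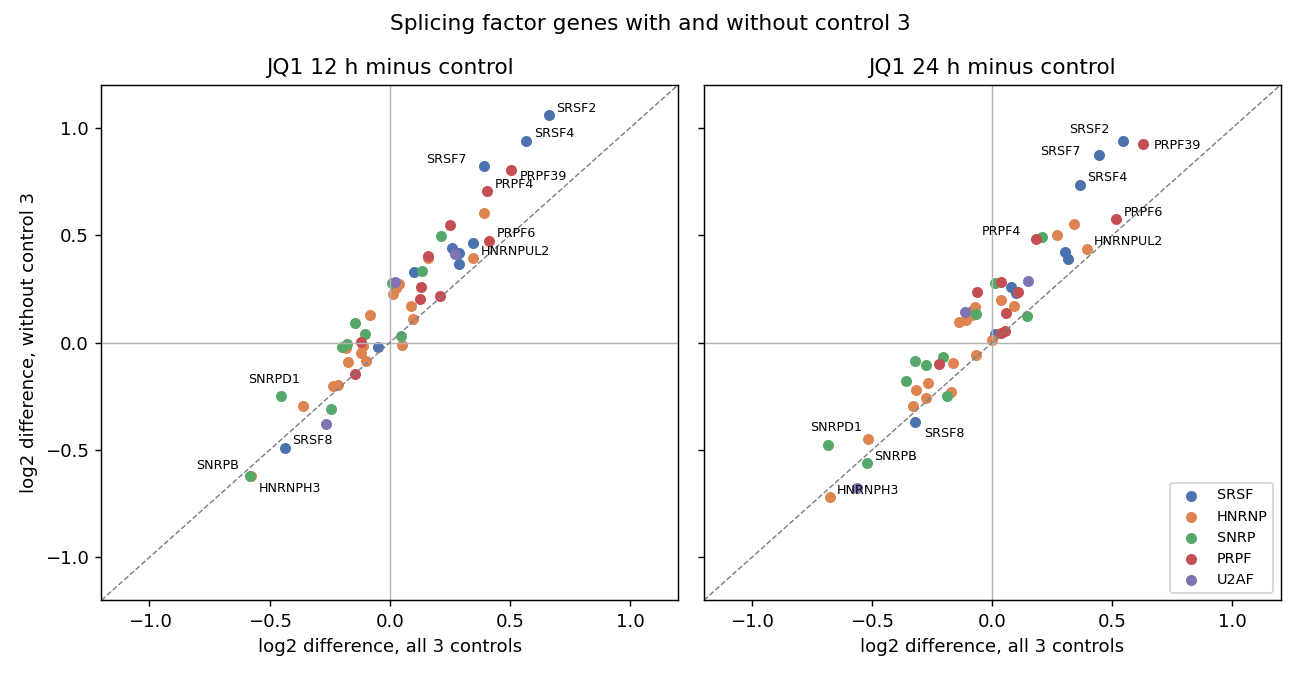
Log2 difference of each splicing factor gene without control 3 (vertical axis) against that with all 3 controls (horizontal axis), for JQ1 12 h minus control (left) and JQ1 24 h minus control (right), with colours for families and a dashed line of equality. The SRSF and PRPF genes at the upper right lie above the line, up to SRSF2 at 1.06 without control 3 and 0.66 with it, while HNRNPH3, SNRPB and SRSF8 lie close to it.

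The remaining 29 members were called in neither fit. Their log2 differences with all arrays ran from −0.45 (SNRPD1) to 0.29 (SRSF5) at 12 h and from −0.68 (SNRPD1) to 0.31 (SRSF5) at 24 h, with standard errors up to 0.215. HNRNPA3, HNRNPCL1 and SRSF12 had means under the median of all rows, 4.94, where the arrays may hold little signal, and no detection calls were used.

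Between the 2 JQ1 times, 0 of the 53 members were called (limma), with 2 at an unadjusted p under 0.05, HNRNPM and PRPF40B, beside 0.00672% of all genes called and 995 of 14884 at an unadjusted p under 0.05. Without control 3 the count called was again 0, with 10 members at an unadjusted p under 0.05, beside 0.148% of all genes called and 1734 at that p. The JQ1 24 h mean was lower than the JQ1 12 h mean in 38 members and higher in 15, with a median difference of −0.10 log2 against 0.00 over all genes, and the differences ran from −0.31 to 0.25. The SRSF family had 5 members whose JQ1 24 h values all lay below the JQ1 12 h values and 1 with all above, beside 7.11% and 5.76% of all genes. Over the 53 members the 2 groups did not overlap in 15 (28.3%, beside 12.9% of all genes).

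Genes that act with these families were read from lists outside the symbol rule. Their counts stand beside 3.54% of all genes called up and 4.39% down at 12 h, and 5.17% and 6.34% at 24 h; in lists this small a single call is a share near or above these. Among SR protein kinases and import factors (9 of 10 measured), 0 rose and 1 fell at each time. This was DYRK1A, a kinase that phosphorylates several splicing factors, with 8.21, 8.25 and 8.30 in the JQ1 12 h arrays and 8.30, 7.96 and 8.18 in the JQ1 24 h arrays, against 9.003, 8.97 and 8.58 in controls (log2 −0.59 and −0.71, adjusted p = 0.024 and 0.0089). None of the CLK and SRPK kinases was called with all arrays. Without control 3, CLK3 was called down at both times (−0.78 and −0.75, adjusted p = 0.00023 and 0.00027), and its control 3 value of 8.31 was the lowest of the 9 arrays; it is named after its values were seen. In the SMN complex and snRNP assembly list (14 of 17 measured), 0 rose at either time, while 1 fell at 12 h and 2 at 24 h. PRMT5, the methyltransferase that modifies Sm proteins including SmB before ring assembly, had 7.84, 8.01 and 7.82 in the JQ1 12 h arrays and 7.83, 7.56 and 7.87 in the JQ1 24 h arrays, against 8.52, 8.36 and 8.34 in controls (log2 −0.52 and −0.65, adjusted p = 0.017 and 0.0048). COIL, the scaffold of Cajal bodies, was called at 24 h (−0.79, adjusted p = 0.013; −0.58 and adjusted p = 0.053 at 12 h).

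Other snRNP and LSm proteins (18 of 27 measured, no LSm among them) had 1 up and 0 down at 12 h and 1 up and 1 down at 24 h. SNRNP25 of the minor spliceosome rose (log2 0.55 and 0.61, adjusted p = 0.044 and 0.021), and TXNL4B fell at 24 h (−0.51, adjusted p = 0.032). In the list of Prp19 complex and catalytic step proteins (19 of 24 measured), 0 rose at either time, and 1 fell at 12 h and 3 at 24 h. CWC22, which loads the exon junction complex onto the spliceosome, had 8.59, 8.84 and 8.99 in the JQ1 12 h arrays and 8.70, 8.40 and 8.72 in the JQ1 24 h arrays, against 9.50, 9.47 and 9.40 in controls (log2 −0.65 and −0.85, adjusted p = 0.014 and 0.0030). RBM22 and BCAS2 were the others called at 24 h (−0.72 and −0.38, adjusted p = 0.0065 and 0.032). Of the exon junction complex and nonsense-mediated decay genes (7 of 16 measured), EIF4A3 rose at 12 h (0.62, adjusted p = 0.026) and MAGOHB fell at both times (−0.79 and −0.95, adjusted p = 0.010 and 0.0035). Both encode core proteins of that complex, and MAGOHB has a near-identical copy, MAGOH, that the probes may not separate.

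Alternative splicing regulators outside the families (26 of 38 measured) had 0 up and 1 down at 12 h (3.85%, beside 4.39% of all genes) and 0 up and 5 down at 24 h (19.2%, beside 6.34%). They include HNRNPA2B1, an hnRNP gene that the symbol rule missed. It was called up only without control 3 and only at 12 h (log2 0.44, limma, adjusted p = 0.015). MBNL3, a muscleblind protein, had 6.04, 6.01 and 6.09 in the JQ1 12 h arrays and 5.50, 5.35 and 5.35 in the JQ1 24 h arrays, against 6.55, 6.57 and 6.76 in controls. The 3 groups did not overlap, and the fall was −0.58 log2 at 12 h and −1.23 at 24 h (adjusted p = 0.0044 and 9.8e-05). PTBP1, PTBP2 and PTBP3, which bind pyrimidine-rich tracts and mostly repress exons, were all called down at 24 h (log2 −0.34, −0.67 and −0.39, adjusted p = 0.021, 0.032 and 0.047). At 12 h they were lower too but not called (log2 −0.13, −0.49 and −0.28, adjusted p = 0.39, 0.12 and 0.17). None was called between the 2 JQ1 times (limma, adjusted p = 0.64, 0.91 and 0.92). PTBP1 had 12.28, 12.31 and 12.19 in the JQ1 12 h arrays and 12.16, 12.04 and 11.95 in the JQ1 24 h arrays, against 12.36, 12.40 and 12.41 in controls. KHSRP, a KH-domain RNA-binding protein, was the fifth gene called down at 24 h (−0.38, adjusted p = 0.037). It was not called at 24 h without control 3 (−0.33, limma, adjusted p = 0.052), where ESRP1, described below, was called down. Without control 3, calls up and down at 12 h numbered 0 and 2 for the kinases, 4 and 2 for snRNP assembly, 8 and 1 for other snRNP proteins, 6 and 4 for the Prp19 list, 2 and 1 for the exon junction list and 4 and 2 for the alternative regulators. At 24 h they numbered 0 and 2, 3 and 2, 6 and 1, 6 and 5, 3 and 2, and 4 and 5 in the same order. Of all genes, 9.57% were called up and 10.5% down at 12 h without control 3, and 9.61% and 11.3% at 24 h.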

How the data were processed

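The deposited table held log2 array values of 53617 rows on 9 arrays, 3 per group. Per the submitters' processing notes the authors used Transcriptome Analysis Console; its version, background correction, normalization and probe summarisation are not given in the sources used here. The log base was taken from the range of the deposited values. Gene names came from the platform annotation table (16098 named, 37519 unnamed here), and the row with the highest mean stood for a gene, which left 14884 genes. Of 55 rows matching the symbol rule, 1 was a pseudogene and 1 a second row of SNRPE.

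With a mean for each group, all 9 arrays entered 1 linear model in limma 3.58.1 in R 4.3.3, with empirical Bayes moderation. P-values were adjusted with the Benjamini-Hochberg method over the 14884 genes within each comparison, with an adjusted p under 0.05 taken as a call. The fit was tested on simulated data with independent noise and no deviating array, so that test does not bear on control 3. Precision is limited by 3 arrays per group. Per-array values are given for members called at either time, the 3 highest and 3 lowest differences with control, the brightest member of each family, 4 textbook members and the 6 lowest adjusted p-values among those called only without control 3; SRSF7 and others called only without it were added after their values were seen. From each list, up to 3 called genes were to be named, and PTBP3 and KHSRP were added. The members and lists were chosen with earlier results of these data known. Alternatives were leaving out each array, a replicate block, 2-group fits, a dim-gene filter, row averaging, trend and robust moderation, quantile normalization, array weights, adjustment over all rows and a threshold of 0.10. Promoter sequences are from RefSeq.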

Additional observations from a re-analysis of the deposited data

Results flagged for a closer look

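Members of which every JQ1 12 h array lay on 1 side of the control mean and every JQ1 24 h array on the other were HNRNPAB and PRPF38A. HNRNPAB had 10.94, 11.001 and 10.78 in the JQ1 12 h arrays and 10.67, 10.66 and 10.50 in the JQ1 24 h arrays, against a control mean of 10.75, and its JQ1 24 h minus JQ1 12 h difference was −0.30 log2 (limma, adjusted p = 0.84). PRPF38A had a control mean of 9.59, and its difference was −0.31 (adjusted p = 0.87). Neither difference between the times passed the test. Both control means include control 3, which lay above all JQ1 values in each gene.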

How the results depend on the processing

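The counts of members called moved most under array weights and on leaving out control 3. With 1 array left out, they ranged from 2 to 22 at 12 h and from 3 to 16 at 24 h around the 5 and 6 with all arrays, and were 0 in all cases between the JQ1 times. The highest counts were those without control 3. The counts at 12 h were 2 on leaving out control 1 or 2, or replicate 2 or 3 at that time, and 3 without JQ1 12 h replicate 1; at 24 h 3 were called without JQ1 24 h replicate 3. Array weights, which gave control 3 a weight of 0.21 against 1.97 and 1.82 for controls 1 and 2, called 23 at 12 h (18 up) and 22 at 24 h (12 up). Fits of only the groups compared called 3 at each time, with fewer arrays per fit. Adjustment over all rows called 3 at 12 h, and a threshold of 0.10 called 12 at 24 h (2 up, 10 down). The other settings kept the counts within 1.5 times. Of the 21 named members' 42 differences, no called one changed sign. Beside the fits with 1 array left out, HNRNPUL2 at 12 h was lost under the block (adjusted p = 0.057), the 2-group fit (0.061), trend and robust moderation (0.062) and adjustment over all rows (0.074). SRSF8 at 24 h was lost under the 2-group fit (0.10), trend and robust moderation (0.080), quantile normalization (0.072) and adjustment over all rows (0.091). The 2-group fit also lost SRSF8 at 12 h (0.051) and HNRNPUL1 (0.053) and HNRNPUL2 (0.052) at 24 h, and adjustment over all rows lost PRPF6 at 12 h (0.058). The cause of these shifts was not tested. A fit with the replicate number as a block called 4 at 12 h, 6 at 24 h and 0 between the JQ1 times. Same-numbered arrays correlated between −0.32 and 0.22 in their deviations from the group means. With so few arrays per group, these values cannot settle whether same-numbered arrays shared a culture or a batch.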

Other observations

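ESRP1, an epithelial splicing regulator of the list outside the families, was named after its values were seen. It had 3.71, 3.58 and 3.58 in the JQ1 12 h arrays and 3.68, 3.54 and 3.76 in the JQ1 24 h arrays, against 5.48, 5.68 and 3.48 in controls. With all arrays it was not called (log2 −1.26 and −1.22, adjusted p = 0.15 and 0.14), and without control 3 it was called at both times (−1.96 and −1.92, adjusted p = 4.1e-06 and 4.3e-06). Control 3 lay near the JQ1 arrays here, a little below all of them, while for SRSF2 it was level with the highest JQ1 array. These are 2 picked genes. Over the 53 members, control 3 lay above the range of the JQ1 values in 34, within it in 17 and below it in 2.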
